A study of Mus musculus with 10 samples.

Results

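Autophagy is the process by which a cell wraps part of its own cytoplasm in a double membrane, the autophagosome, and delivers it to lysosomes. Its machinery is described here through 37 genes taken by name, of which 35 had a probe set of their own on the array, 81 probe sets in all among the 45101 rows of the table. Optn had no probe set under its name in the annotation used, and the probe sets of Bnip3l carried several symbols, so these 2 genes were not analysed here. All 35 measured genes passed the filter on low values (above 4.33, the median of the table, in at least 2 arrays), although 19 of their 81 probe sets were too dim for it.

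RNA was measured in whole livers of male C57BL/6 NHsd mice with Affymetrix expression arrays, on which a probe set is a group of short probes for 1 transcript region. The Rab5 siRNA group (4 livers) had received lipid nanoparticles with small interfering RNAs (siRNAs) against all Rab5 genes at 1.5 mg/kg through the tail vein, the control siRNA group (4 livers) the same kind of particle and dose with a control RNA, and the PBS group (2 livers) phosphate-buffered saline. All livers were taken on day 5. The sample titles call the control RNA scrambled and non-targeting, whereas luciferase is the target given in the design text. Ages are not given in the sources used here. The labels name no other set of Rab5 siRNAs, so effects of losing Rab5 and other effects of these siRNAs cannot be told apart. The titles number the livers without stating that every number is a separate mouse, and the p-values therefore describe only how these samples vary, which may be partly technical. All values are log2 expression values, and a change is a difference of group means on that scale, with control siRNA subtracted from Rab5 siRNA where nothing else is stated.

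Autophagy begins when the ULK1 kinase complex is switched on, commonly by nutrient shortage, and activates a lipid kinase complex around Beclin 1 that marks the growing membrane with phosphatidylinositol 3-phosphate. Readers of this lipid and membrane carriers extend the membrane, and a conjugation system attaches small ubiquitin-like proteins of the ATG8 family (LC3 and GABARAP) to it. Cargo receptors such as p62, the product of Sqstm1, link ubiquitinated material or damaged organelles to these proteins and are themselves degraded in the process. In liver, autophagy supplies amino acids during fasting and clears damaged mitochondria, and mouse livers that lack Atg5 or Atg7 accumulate p62 protein. Rab5, the small GTPase of early endosomes, is a known partner of the same lipid kinase, Pik3c3 (VPS34).

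The targeted genes checked the labels. Rab5a lay between 6.28 and 7.16 in the 4 Rab5 siRNA livers, against 8.33 to 8.81 in the control siRNA and 8.73 to 8.75 in the PBS livers, and Rab5c between 6.99 and 7.36 with Rab5 siRNA, against 9.03 to 9.40 with control siRNA and 9.26 to 9.31 with PBS. Rab5b was dim throughout, at 3.85 to 4.39 with Rab5 siRNA, 4.12 to 4.49 with control siRNA and 4.40 to 4.44 with PBS. After filtering, 12855 genes were tested. Rab5 siRNA replicate 1 stood apart from the other Rab5 siRNA arrays on the first principal component (17.5, against 30.3 to 38.3 for the other 3), and replicate 2 of each siRNA group (2.67 for Rab5 siRNA and 2.86 for control siRNA) exceeded its group's other arrays in the log2 difference between the 3′ and 5′ Gapdh probe sets, a sign of RNA quality. PBS replicate 2 was also high in it (2.58, against 2.15 in PBS replicate 1), and the remaining siRNA arrays had 2.19 to 2.38. Results below are given without these arrays where that changed a call.

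The autophagy genes were mostly lower with Rab5 siRNA, by small amounts. Of the 35 measured genes 10 fell, 2 rose and 23 did not pass (limma, adjusted p under 0.05 over all 12855 genes). The 10 that fell make 28.6% of the 35, where 9.51% of all genes tested were called down, and the 2 that rose make 5.71%, where 13.8% of all genes were called up. At the level of single probe sets, 13 of the 62 above the filter were called down and 2 up, where 7.75% and 10.8% of all such probe sets were. The difference was below 0 for 29 of the 35 genes (82.9%), against 49.5% of all genes, and the median difference was -0.26, against 0.00 over all genes. The genes were chosen with earlier results of these data known, so these shares are a description and not a test. The called falls ran from -0.90 for Ulk1 to -0.37 for Atg13, and the rises were 0.29 for Gabarap and 0.56 for Sqstm1. No autophagy gene changed 2-fold, while 496 of all genes tested were called with at least that change.

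**Figure D1:**
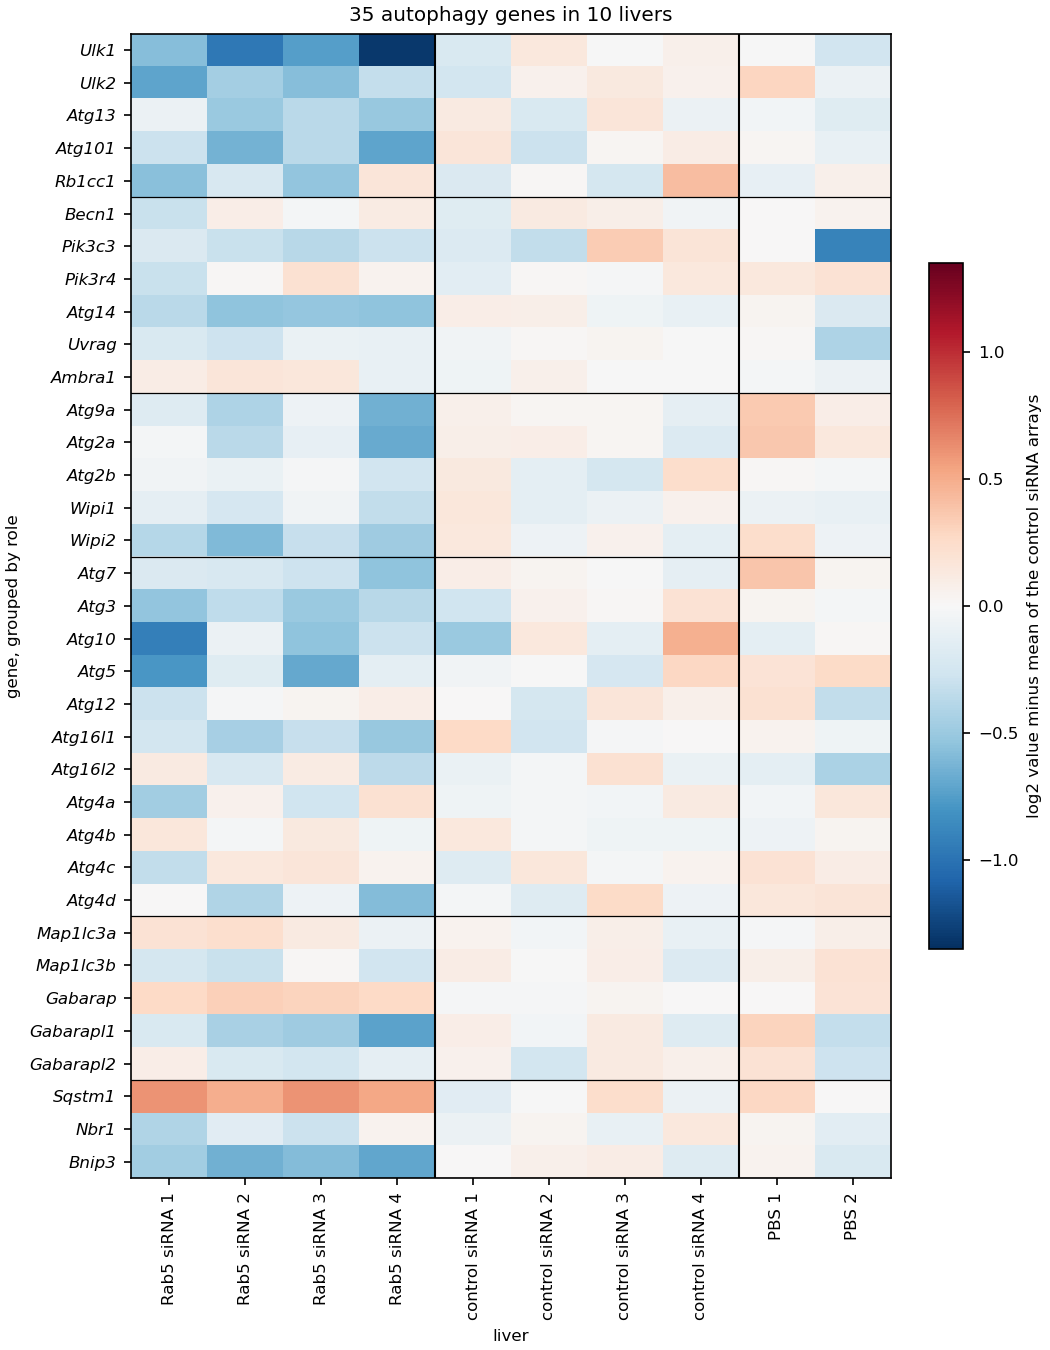
Log2 value of each of the 35 measured autophagy genes (rows, grouped by role) in each of the 10 livers (columns), minus the mean of the control siRNA arrays, with blue lower and red higher. Ulk1, Ulk2, Atg14, Wipi2, Atg3 and Bnip3 are blue in all 4 Rab5 siRNA columns, Sqstm1 and Gabarap are red there, and the PBS columns show no such block.

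All 4 Rab5 siRNA values lay below all 4 control siRNA values for 10 of the 35 genes, 8 of them called, against 11.2% of all genes tested. They lay above them for 2 genes, against 13.8% of all genes. Per array, the median of the 35 genes stood 0.22 to 0.29 below the control mean in the 4 Rab5 siRNA livers, while it lay between -0.02 and 0.03 in the control siRNA livers and at 0.04 and -0.02 in the PBS livers. With the replicate number as a block, 16 of the 35 genes were called down and 2 up. Of all genes 11.9% were then called down and 17% up, against 9.51% and 13.8% without the block. The 6 added were Rb1cc1, Atg9a, Atg2a, Atg7, Atg10 and Atg5. With replicate 2 omitted from each siRNA group 6 genes were called down and 1 up, and 5.76% of all genes down and 8.27% up. With replicate 1 omitted from each, including the Rab5 siRNA array that stood apart, 9 were called down and 1 up. Of all genes 9.21% were then called down and 13.8% up. The count of rises was also 1 without Rab5 siRNA replicate 2 or 3 or control siRNA replicate 1 or 2, where 10.4% to 11.5% of all genes rose.

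The arrays measured whole livers, so fewer cells of a type and less RNA per cell cannot be told apart. Hepatocyte markers, of which 9 of 10 were measured, summed to log2 values of 16.40 to 16.43 in Rab5 siRNA, 16.41 to 16.45 in control siRNA and 16.41 to 16.45 in PBS livers, with 1 marker up (Ahsg) and 2 down (Apoa2 and Cps1). Kupffer cell and macrophage markers moved with the treatment: 8 of 14 measured rose and 0 fell, and their summed level was 13.27 to 13.73, against 12.83 to 13.13 with control siRNA and 12.89 to 13.04 with PBS. Stellate cell and fibroblast markers had 3 of 10 up and 0 down. Lymphocyte markers had 0 of 7 up and 1 down (Ighm). Their summed level was also apart, at 7.90 to 8.07, against 8.43 to 8.62 with control siRNA and 8.31 to 8.57 with PBS. Sinusoidal endothelial markers had 1 of 9 up and 3 down. Their summed level was 10.89 to 11.13, just under the control siRNA range but overlapping the PBS range of 11.01 to 11.14. Of neutrophil and monocyte markers 1 of 6 rose, of cholangiocyte markers 1 of 3, and the erythroid marker measured, Alas2, fell. For comparison, 13.8% of all genes tested were called up and 9.51% down. Summed cholangiocyte markers were at least 6.89 with Rab5 siRNA and at most 6.79 in the other livers. The stellate and the neutrophil sums overlapped those of the control siRNA livers. The part of these cells in the autophagy results was not tested.

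The promoters of Bnip3, Atg14 and Atg3 are shown because they belong to genes that fell and hold the 6-base element CACGTG, the core of the site bound by TFEB and its relatives, regulators of lysosomal and autophagy genes, and also bound by other basic helix-loop-helix factors. They are RefSeq promoter sequences of mouse build GRCm38.p6, from 250 bases before to 30 bases after the annotated start of the gene, read along the gene, with the element in capitals.
Bnip3 (chr7:138909477-138909756, minus strand): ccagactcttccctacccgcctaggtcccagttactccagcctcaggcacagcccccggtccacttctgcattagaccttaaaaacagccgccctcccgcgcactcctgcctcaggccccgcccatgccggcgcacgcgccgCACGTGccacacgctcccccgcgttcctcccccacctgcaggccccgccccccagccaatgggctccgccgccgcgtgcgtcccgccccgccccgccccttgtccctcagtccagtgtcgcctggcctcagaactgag
Atg14 (chr14:47568405-47568684, minus strand): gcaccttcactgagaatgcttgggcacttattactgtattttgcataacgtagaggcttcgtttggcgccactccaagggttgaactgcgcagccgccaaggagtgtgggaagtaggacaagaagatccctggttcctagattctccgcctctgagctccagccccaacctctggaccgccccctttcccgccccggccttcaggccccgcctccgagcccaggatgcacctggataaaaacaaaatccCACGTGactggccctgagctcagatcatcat
Atg3 (chr16:45158579-45158858, plus strand): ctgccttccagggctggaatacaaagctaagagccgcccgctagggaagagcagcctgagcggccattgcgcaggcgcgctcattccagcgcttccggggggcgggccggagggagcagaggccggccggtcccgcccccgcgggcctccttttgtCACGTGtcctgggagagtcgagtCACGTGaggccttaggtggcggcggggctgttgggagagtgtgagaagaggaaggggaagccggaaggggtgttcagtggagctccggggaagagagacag
The element began 108 bases before the start in Bnip3, 1 base before it in Atg14, and 94 and 71 bases before it in Atg3. Windows of 300 bases (250 before to 50 after the start) were available for 30 of the autophagy genes. CACGTG, which reads the same on both strands, was present for 5 of the 30 (16.7%), namely these 3 and Atg7 and Atg5, against 1188 of 10363 tested genes with a window (11.5%). Among the genes called down with a window it was present for 3 of 9, and for 0 of the 2 that rose. Its 10-base form in the CLEAR element, CACGTG with GT before and AC after it, matched no autophagy gene and 0.743% of tested genes. The core of the antioxidant response element, TGACNNNGC on either strand, was present for Atg13, Ulk2 and Map1lc3b (3 of 30, against 16.8% of tested genes) and not for Sqstm1, and the forkhead element TGTTTAC on either strand for none of the 30 (3.39% of tested genes). A match is a description of the letters, not of binding, and elements outside these windows were not searched.

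The initiation kinase complex had most of its genes lower, with 4 of 5 called down and the fifth also below 0. Ulk1, the kinase that starts autophagy, had log2 values of 8.30, 7.91, 8.13 and 7.57 in Rab5 siRNA livers, against 8.67, 9.02, 8.87 and 8.94 in control siRNA livers and 8.86 and 8.62 in PBS livers. All 4 Rab5 siRNA livers were below every other liver. Its mean was 7.98 ± 0.316 with Rab5 siRNA and 8.88 ± 0.15 with control siRNA (SD, n = 4 each), a change of -0.90 (SE 0.147, limma adjusted p = 0.000605), or 53.6% of the control signal. Another, dimmer Ulk1 probe set differed by -0.24 (limma adjusted p = 0.253 over all probe sets). Ulk2, a related kinase with overlapping function, had 6.80, 7.06, 6.94 and 7.20 with Rab5 siRNA, against 7.27, 7.57, 7.65 and 7.57 with control siRNA and 7.81 and 7.44 with PBS. The groups did not overlap, and the change was -0.52 (SE 0.124, limma adjusted p = 0.00861). Its 2 other probe sets above the filter changed by -0.48 and -0.47, and both passed over all probe sets.

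Atg101, a scaffold that stabilises Atg13 in this complex, had 7.26, 6.91, 7.18 and 6.84 with Rab5 siRNA, against 7.71, 7.26, 7.57 and 7.65 with control siRNA and 7.57 and 7.44 with PBS. The highest Rab5 siRNA value lay just under the lowest control value, and the change was -0.50 (SE 0.126, limma adjusted p = 0.0114). Atg13, the adaptor that holds the kinase and scaffold together, had 6.86, 6.45, 6.58 and 6.43, against 7.06, 6.74, 7.11 and 6.87 with control siRNA and 6.91 and 6.78 with PBS. Here the groups overlapped, since Rab5 siRNA replicate 1 was above control siRNA replicate 2, and the change of -0.37 (SE 0.121, limma adjusted p = 0.0439) was close to the threshold. The call ended without Rab5 siRNA replicate 2 (adjusted p = 0.125), 3 (0.0891) or 4 (0.109), without control siRNA replicate 1 (0.11), 3 (0.117) or 4 (0.0578), and without either PBS array (0.0566 each). It also ended with replicate 2 omitted from each siRNA group (0.089). The mean of the Atg13 probe sets gave -0.19 (adjusted p = 0.24), as its second probe set above the filter differed by -0.02. Rb1cc1 (FIP200), the large scaffold of the complex, differed by -0.28 (SE 0.174, limma adjusted p = 0.268), and by the same amount with adjusted p = 0.0251 under the replicate block.

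**Figure D2:**
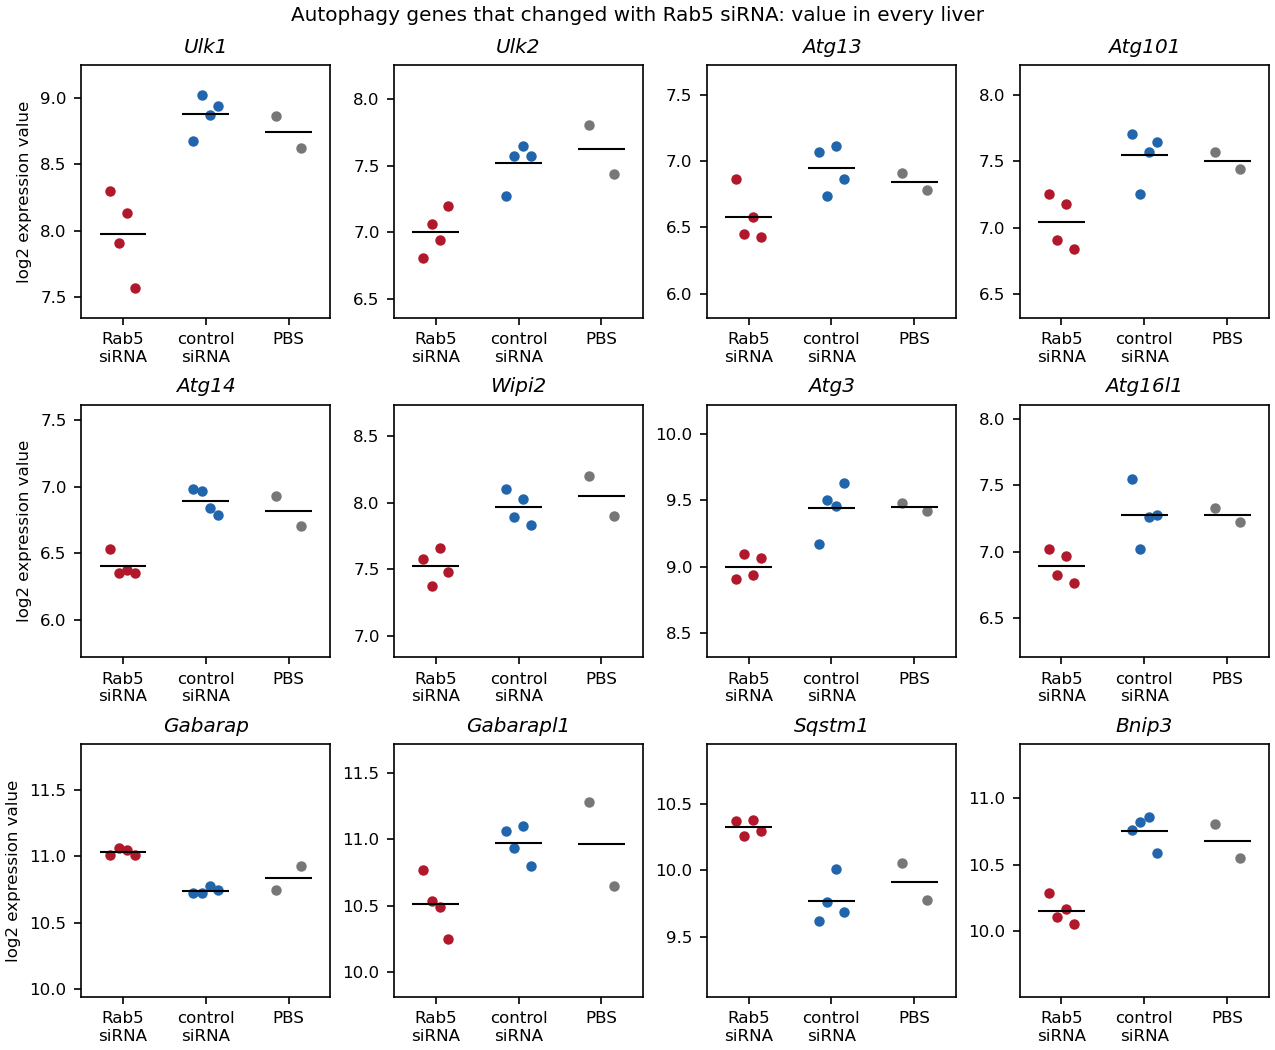
Log2 expression value of the 12 called autophagy genes in every liver, one panel a gene, with Rab5 siRNA (red), control siRNA (blue) and PBS (grey) from left to right and a black line at each group mean; every panel spans the same range of log2 units. Rab5 siRNA points lie below all control siRNA points for Ulk1, Ulk2, Atg101, Atg14, Wipi2, Atg3, Gabarapl1 and Bnip3, above them for Gabarap and Sqstm1, and overlap them for Atg13 and Atg16l1.

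In the lipid kinase complex the subunit for autophagy fell while the shared core did not pass. Atg14, the subunit that directs the kinase to sites of autophagosome formation, had 6.53, 6.36, 6.38 and 6.35 with Rab5 siRNA, against 6.98, 6.97, 6.84 and 6.79 with control siRNA and 6.93 and 6.70 with PBS. The 4 Rab5 siRNA livers were below all others, with means of 6.40 ± 0.0851 and 6.90 ± 0.095 in the siRNA groups (SD, n = 4 each) and a change of -0.49 (SE 0.0958, limma adjusted p = 0.00221). The core subunits differed by less: Becn1 (Beclin 1) by -0.03 (SE 0.111), the protein kinase-like subunit Pik3r4 by -0.01 (SE 0.114) and the catalytic subunit Pik3c3, which was dim, by -0.29 (SE 0.184). The other Becn1 probe sets above the filter differed by 0.02 and 0.09. Uvrag, the subunit that takes the place of Atg14 in the endosomal form of the complex, differed by -0.17 (SE 0.105, limma adjusted p = 0.284), although its 4 Rab5 siRNA values (6.92 to 7.10) lay under all 4 control values (7.15 to 7.23). PBS replicate 2, at 6.77, was lower than both. Ambra1, a regulator of Beclin 1, differed by 0.08 (SE 0.0916).

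Of the genes for membrane supply and for reading the lipid mark, 1 of 5 fell and all 5 were below 0. Wipi2, which binds the lipid mark and recruits the conjugation machinery, had 7.58, 7.37, 7.66 and 7.48 with Rab5 siRNA, against 8.10, 7.89, 8.03 and 7.84 with control siRNA and 8.20 and 7.90 with PBS. The Rab5 siRNA livers were below all others, and the change was -0.44 (SE 0.107, limma adjusted p = 0.00895). A second Wipi2 probe set above the filter differed by -0.08, and the mean of the gene's probe sets by -0.26 (adjusted p = 0.101). With replicate 2 omitted from each siRNA group Wipi2 had an adjusted p of 0.057. The related Wipi1 differed by -0.18 (SE 0.0999). The membrane protein Atg9a, a lipid scramblase carried on vesicles, differed by -0.33 (SE 0.128, limma adjusted p = 0.0828, 0.0281 under the replicate block and 0.0437 without Rab5 siRNA replicate 3), and the lipid transfer protein Atg2a by -0.30 (SE 0.138, adjusted p = 0.146, and 0.0443 under the block). Its relative Atg2b was dim and differed by -0.10 (SE 0.116), while another Atg2b probe set, too dim for the filter, stood at -0.63.

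Of 11 genes of the conjugation system 2 fell, 0 rose and 9 did not pass, with differences between -0.46 and 0.05. Atg3, the E2-like enzyme that attaches ATG8 proteins to the membrane, had 8.90, 9.09, 8.94 and 9.07 with Rab5 siRNA, against 9.17, 9.50, 9.46 and 9.63 with control siRNA and 9.48 and 9.42 with PBS. No Rab5 siRNA liver reached the lowest of the others, and the change was -0.44 (SE 0.109, limma adjusted p = 0.0101, and 0.0501 with replicate 2 omitted from each siRNA group). A second Atg3 probe set, too dim for the filter, changed by -0.65. Atg16l1, which anchors the Atg12-Atg5 conjugate at the membrane, had 7.02, 6.83, 6.97 and 6.76, against 7.55, 7.02, 7.26 and 7.28 with control siRNA and 7.33 and 7.22 with PBS. The siRNA groups met at 7.02, where Rab5 siRNA replicate 1 and control siRNA replicate 2 coincided to 2 decimals, and the change was -0.38 (SE 0.117, limma adjusted p = 0.0312). This call ended without Rab5 siRNA replicate 2 (adjusted p = 0.0852), 3 (0.0506) or 4 (0.08), without control siRNA replicate 1 (0.0915), 3 (0.0588) or 4 (0.059), and with replicate 1 omitted from each siRNA group (0.0545).

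Atg5, the partner of Atg12 in the conjugate, did not pass with its brightest probe set, while its dimmer ones did. That probe set had 6.58, 7.19, 6.67 and 7.22 with Rab5 siRNA, against 7.31, 7.35, 7.13 and 7.64 with control siRNA and 7.54 and 7.62 with PBS, a difference of -0.44 (SE 0.157, limma adjusted p = 0.0581). Rab5 siRNA replicates 1 and 3 were clearly low, and replicates 2 and 4 lay inside the control range. The 2 other Atg5 probe sets changed by -0.45 (adjusted p = 0.00338) and -0.47 (adjusted p = 0.00896) over all probe sets, the mean of the 3 by -0.46 (adjusted p = 0.00479), and the replicate block gave -0.44 (adjusted p = 0.0105). Single omissions of Rab5 siRNA replicate 2 (0.0398) or 4 (0.0278) or of control siRNA replicate 3 (0.0477) also brought the adjusted p of the brightest probe set under the threshold. Atg7, the E1-like enzyme that activates both conjugation branches, was lower in every Rab5 siRNA liver than in any control siRNA liver, with the highest of the first at 6.85 and the lowest of the second at 6.92, and its difference of -0.31 (SE 0.111) had limma adjusted p = 0.062, 0.027 under the block and 0.0457 without Rab5 siRNA replicate 1. Its 2 other probe sets above the filter differed by -0.05 and -0.09.

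The remaining conjugation genes did not pass. Atg10, the E2-like enzyme for Atg12, was dim and differed by -0.46 (SE 0.204, limma adjusted p = 0.126, 0.0204 under the block and 0.0371 without control siRNA replicate 1). Atg12 itself differed by -0.04 (SE 0.136), but its second, dimmer probe set by 0.34 (adjusted p = 0.0624 over all probe sets), so the direction of this gene depended on the probe set. Atg16l2, a relative of Atg16l1, differed by -0.08 (SE 0.13). The 4 proteases that process ATG8 proteins, Atg4a (-0.12), Atg4b (0.05), Atg4c (0.00) and Atg4d (-0.26), had SE of 0.0941 to 0.138 and did not pass.

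The ATG8 family was split. Its members are the proteins that coat the autophagosome, and LC3 and GABARAP forms act at partly different steps. Gabarapl1, a GABARAP-type member, had 10.77, 10.54, 10.49 and 10.25 with Rab5 siRNA, against 11.06, 10.94, 11.10 and 10.80 with control siRNA and 11.28 and 10.65 with PBS. The siRNA groups did not overlap, PBS replicate 2 lay inside the Rab5 siRNA range, and the change was -0.46 (SE 0.145, limma adjusted p = 0.0342). A second probe set of the gene changed by -0.60 and passed over all probe sets. The call of the first ended without Rab5 siRNA replicate 2 (adjusted p = 0.0683), 3 (0.0773) or 4 (0.0954), without control siRNA replicate 1 (0.0812), 2 (0.0615) or 3 (0.0878), and with replicate 2 omitted from each siRNA group (0.11).

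Gabarap rose slightly and very evenly. It had 11.01, 11.07, 11.05 and 11.01 with Rab5 siRNA, against 10.72, 10.72, 10.78 and 10.75 with control siRNA and 10.75 and 10.93 with PBS. Every Rab5 siRNA liver was above every other liver, and the change was 0.29 (SE 0.0844, limma adjusted p = 0.0239), 122% of the control signal. The call ended without Rab5 siRNA replicate 2 (adjusted p = 0.071) or 3 (0.0554), without control siRNA replicate 1 (0.0546) or 2 (0.053), and with replicate 2 (0.132) or replicate 1 (0.0572) omitted from each siRNA group. In the other 3 members the differences did not pass: Gabarapl2 had -0.12 (SE 0.128), Map1lc3a (LC3A) 0.12 (SE 0.0972) and Map1lc3b (LC3B), the usual marker of autophagosomes, -0.20 (SE 0.105, limma adjusted p = 0.202). The 4 Map1lc3b probe sets above the filter differed by -0.29 to -0.03. The Gabarapl1 and Map1lc3a probe sets used here are of the kinds marked _s_at and _x_at, whose probes can match related transcripts. Those used for Becn1, Pik3r4 and Wipi1 are also marked _s_at.

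**Figure D3:**
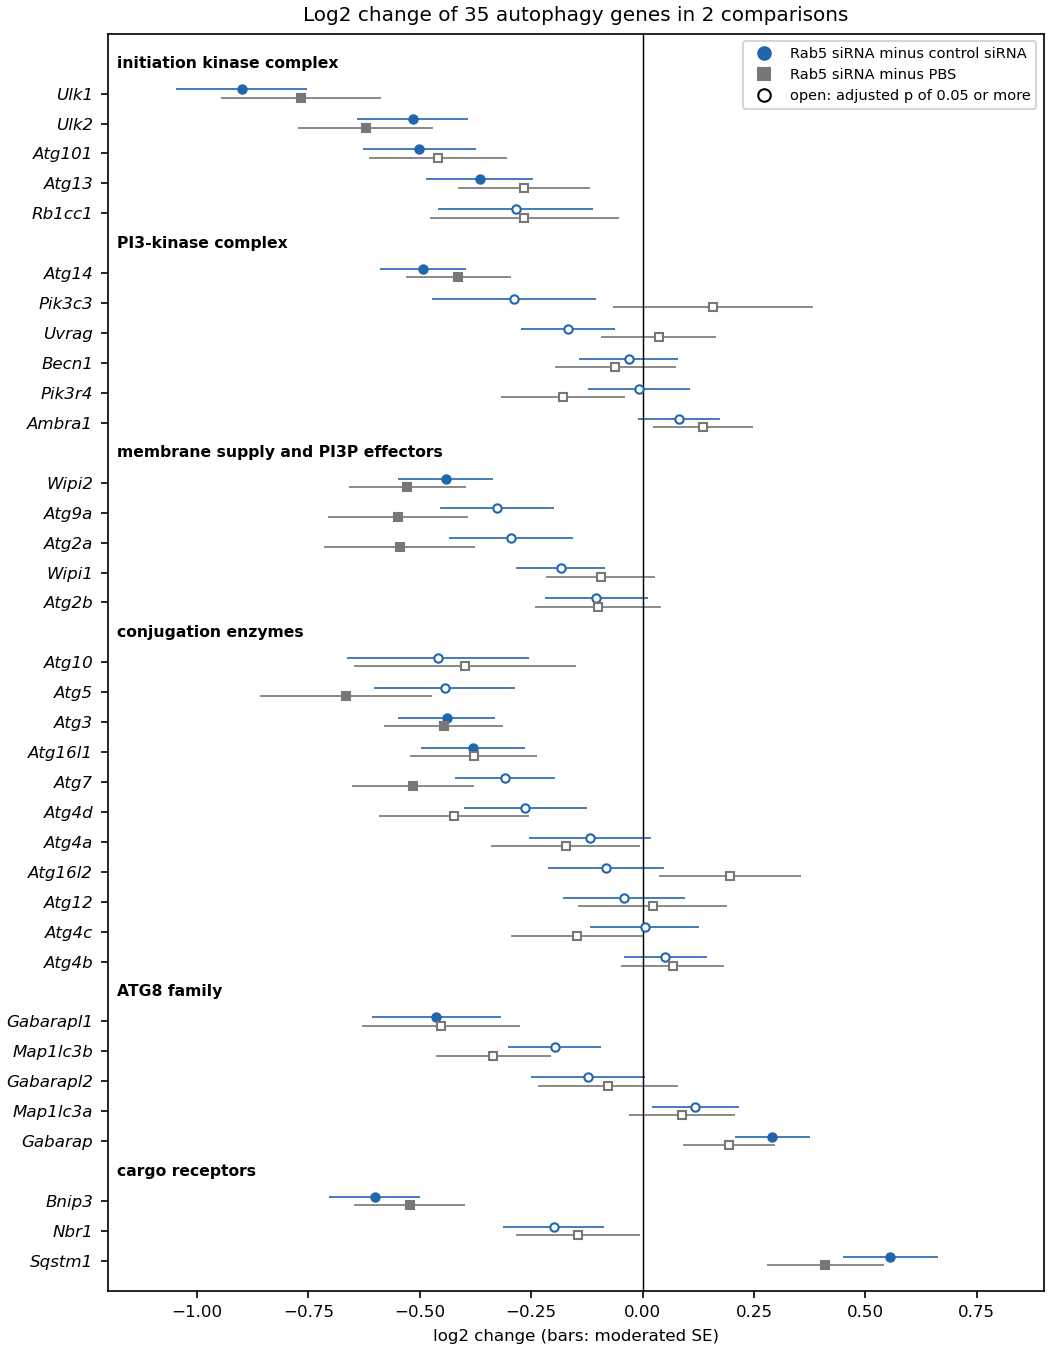
Log2 change of the 35 measured autophagy genes, grouped by role, for Rab5 siRNA minus control siRNA (blue circles) and Rab5 siRNA minus PBS (grey squares), with the moderated SE as bars and filled symbols for limma adjusted p under 0.05. The initiation kinase genes lie left of 0 in both comparisons, from -0.90 for Ulk1 to -0.27 for Rb1cc1, whereas Sqstm1 and Gabarap lie right of it; the comparisons share the Rab5 siRNA arrays.

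Cargo receptors moved in opposite directions. Sqstm1, which encodes the receptor p62, had 10.37, 10.26, 10.38 and 10.29 with Rab5 siRNA, against 9.62, 9.76, 10.01 and 9.68 with control siRNA and 10.05 and 9.78 with PBS. The Rab5 siRNA livers were above all others, with means of 10.32 ± 0.0584 and 9.77 ± 0.169 in the siRNA groups (SD, n = 4 each) and a change of 0.56 (SE 0.107, limma adjusted p = 0.00208), 147% of the control signal. A second, dim Sqstm1 probe set differed by 0.11. Bnip3, a mitochondrial outer membrane receptor for the removal of mitochondria, had 10.28, 10.11, 10.17 and 10.06 with Rab5 siRNA, against 10.76, 10.82, 10.85 and 10.59 with control siRNA and 10.80 and 10.55 with PBS. It was lower in every Rab5 siRNA liver than in any other, and the change was -0.60 (SE 0.102, limma adjusted p = 0.000804), 65.9% of the control signal. Nbr1, a receptor related to p62, differed by -0.20 (SE 0.113, limma adjusted p = 0.232).

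Leaving out each of the 10 arrays in turn kept 7 of the 10 falls and 1 of the 2 rises called every time. These were Ulk1, Ulk2, Atg101, Atg14, Wipi2, Atg3 and Bnip3, and Sqstm1. Their highest adjusted p with an array left out ranged from 0.00305 for Ulk1 to 0.0411 for Atg101. For all 12 called genes the direction was that of the full set in each of these omissions and each other setting tried.

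**Figure D4:**
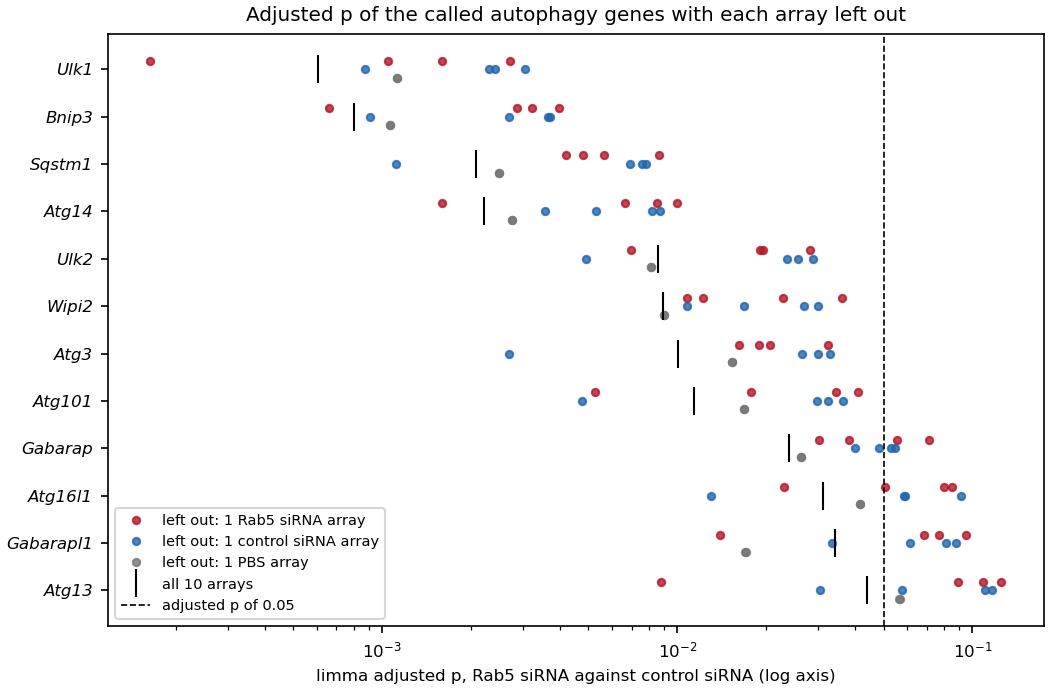
Limma adjusted p (log axis) of the 12 called autophagy genes for Rab5 siRNA against control siRNA, from all 10 arrays (black bars) and with 1 array left out (points, coloured by the group of that array), with a dashed line at 0.05. All points of Ulk1, Bnip3, Sqstm1, Atg14, Ulk2, Wipi2, Atg3 and Atg101 lie left of the line, while Gabarap, Atg16l1, Gabarapl1 and Atg13 have points on both sides.

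The PBS livers offered a second reference of 2 arrays. Against PBS, 11 of the 35 genes passed, where 17.1% of all genes tested did: 10 fell (28.6%, where 7.59% of all genes tested were called down) and 1 rose (2.86%, where 9.53% were called up), with a median difference of -0.27 against 0.01 over all genes. Both comparisons use the same Rab5 siRNA arrays, so they are not independent. Ulk1 differed by -0.77 (SE 0.179) from PBS and by -0.90 from control siRNA, Bnip3 by -0.52 and -0.60, Ulk2 by -0.62 and -0.52, Wipi2 by -0.53 and -0.44, Atg3 by -0.45 and -0.44 and Atg14 by -0.41 and -0.49, and these 6 were called in both. Atg5 (-0.67), Atg9a (-0.55), Atg2a (-0.54) and Atg7 (-0.51) were called down against PBS only, and Sqstm1 was up by 0.41 (SE 0.131, limma adjusted p = 0.0475). Atg101 (-0.46, adjusted p = 0.0594), Gabarapl1 (-0.45), Atg16l1 (-0.38), Atg13 (-0.27) and Gabarap (0.19) did not pass against PBS with all arrays. The fall of Atg7 against PBS came from its brightest probe set, as its others above the filter differed by -0.16 and -0.08 and the mean of its probe sets by -0.25 (adjusted p = 0.123). For Wipi2 the mean of the probe sets differed from PBS by -0.28 (adjusted p = 0.18).

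These calls rested heavily on the PBS arrays. With either of them omitted 1 PBS array remained, and fewer of all genes tested were called as well. Without PBS replicate 1, 0 of the 10 falls passed (limma adjusted p from 0.129 to 0.304), though all kept their sign. Without PBS replicate 2, the calls of Atg9a (0.0557), Atg2a (0.0892), Atg3 (0.124), Atg5 (0.169) and Sqstm1 (0.372) ended. Sqstm1 was called against PBS in 2 of the 10 omissions, those of control siRNA replicates 1 and 3. Atg14 did not pass without Rab5 siRNA replicate 2 (0.0687), 3 (0.0573) or 4 (0.0513), nor under the replicate block (0.0531), where Sqstm1 did not pass either (0.0818) and Atg101 (0.0385) and Rb1cc1 (0.0441) did. Atg3 did not pass without Rab5 siRNA replicate 1 (0.0528) or 3 (0.075), Atg9a without Rab5 siRNA replicate 2 (0.0676) and Atg5 without Rab5 siRNA replicate 3 (0.0754). Atg2a did not pass without Rab5 siRNA replicate 2 (0.0909) or 4 (0.07) or control siRNA replicate 2 (0.0543) or 3 (0.0576). With replicate 2 omitted from each siRNA group 5 falls passed, where 5.29% of all genes were called down. The falls of Atg14 (0.0886), Atg9a (0.0908), Atg2a (0.115), Wipi2 (0.0558) and Atg3 (0.0678) and the rise of Sqstm1 (0.0986) did not pass there.

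Other omissions added calls against PBS. Without Rab5 siRNA replicate 1, the array that stood apart, Atg101 (-0.53, limma adjusted p = 0.0265), Gabarapl1 (-0.54, adjusted p = 0.0453) and Atg4d (-0.51, adjusted p = 0.041) were called down as well, and Sqstm1 was not called (0.0653). With replicate 1 omitted from each siRNA group, 14 falls passed, where 9.04% of all genes were called down. The added ones were Atg101 (0.0229), Atg16l1 (0.0325), Atg4d (0.0443) and Gabarapl1 (0.0467), and Sqstm1 was not called (0.0566). Atg101 also passed without control siRNA replicate 2 (0.0413), and without PBS replicate 2 Gabarapl1 differed by -0.77.

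No autophagy gene passed between the control siRNA and the PBS livers. For control siRNA minus PBS limma called 0 of the 35 autophagy genes and 0 (0%) of all 12855 genes, with 0 of the 35 and 554 of all genes at an unadjusted p under 0.05. The 35 differences ran from -0.25 for Atg2a to 0.45 for Pik3c3, around a median of 0.00, and 19 of them were above 0. Pik3c3 had 4.90, 4.76, 5.43 and 5.27 with control siRNA, against 5.09 and 4.19 with PBS, so the largest of these differences came from a dim gene and 1 low PBS array. Other settings called 0 to 18 of all genes and 0 of the 35.

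Genes around this machinery did not show the same share of falls. In 4 further lists of autophagy genes, none of them among the 37, 107 of 119 entries were measured, of which 5 fell (4.67%) and 9 rose (8.41%), with a median of -0.01. These shares lie under those of all genes tested (9.51% down and 13.8% up), and the difference between the lists was not tested.

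Among 38 regulators of autophagy (the mTORC1, AMPK and TFEB groups and Bcl-2 proteins), 4 rose and 3 fell. The largest change was in Deptor, an inhibitor of mTOR, with means of 8.73 with Rab5 siRNA and 9.45 with control siRNA, a change of -0.72 (SE 0.100, limma adjusted p = 0.000183). Bcl2, which binds Beclin 1, rose by 0.55 (SE 0.129), its relative Bcl2l1 by 0.39 (SE 0.118) and the AMPK subunit Prkab1 by 0.39 (SE 0.104). The list had 7 called genes in all, but 4 without Rab5 siRNA replicate 2, 2 without Rab5 siRNA replicate 3, and 4 without control siRNA replicate 2 or 4. Of all genes 2993 were called with every array, and 2214, 2371, 2541 and 2668 in these omissions, in the same order.

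Of 23 further early and membrane factors 2 rose and 0 fell: the membrane-curving protein Sh3glb1 (0.46, SE 0.0939, limma adjusted p = 0.00333) and Trim28 (0.30). Only 1 of these was called without Rab5 siRNA replicate 2 or 3 or control siRNA replicate 1 or 4, where 2214 to 2668 of all genes were. Of 25 genes for fusion of autophagosomes with lysosomes 2 rose and 1 fell, namely the SNARE protein Stx7 (0.58, SE 0.135), the late endosomal GTPase Rab7 (0.28) and, down, Mon1a (-0.47), part of the exchange factor that activates Rab7. Of 21 further cargo receptors and mitophagy genes Rtn3, a receptor for the endoplasmic reticulum, rose (0.39, SE 0.0921) and the mitochondrial Nipsnap1 fell (-0.48, SE 0.0932). Without Rab5 siRNA replicate 1 this list had 7 called genes, and 3426 of all genes were called, against 2993 with every array.

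Targets of NRF2 were examined beside Sqstm1, which is itself a known NRF2 target and whose product binds the NRF2 inhibitor Keap1. Of 18 measured 11 rose and 1 fell, where 13.8% of all genes tested were called up and 9.51% down. The largest rises were those of Cbr3 (3.02, SE 0.201), Srxn1 (2.34), Gstm3 (2.30) and Nqo1 (1.65). Me1 fell by 0.56 on the log2 scale. Keap1 differed by 0.27 (SE 0.105, limma adjusted p = 0.0859). Whether the rise of Sqstm1 is linked to these genes was not tested.

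**Figure D5:**
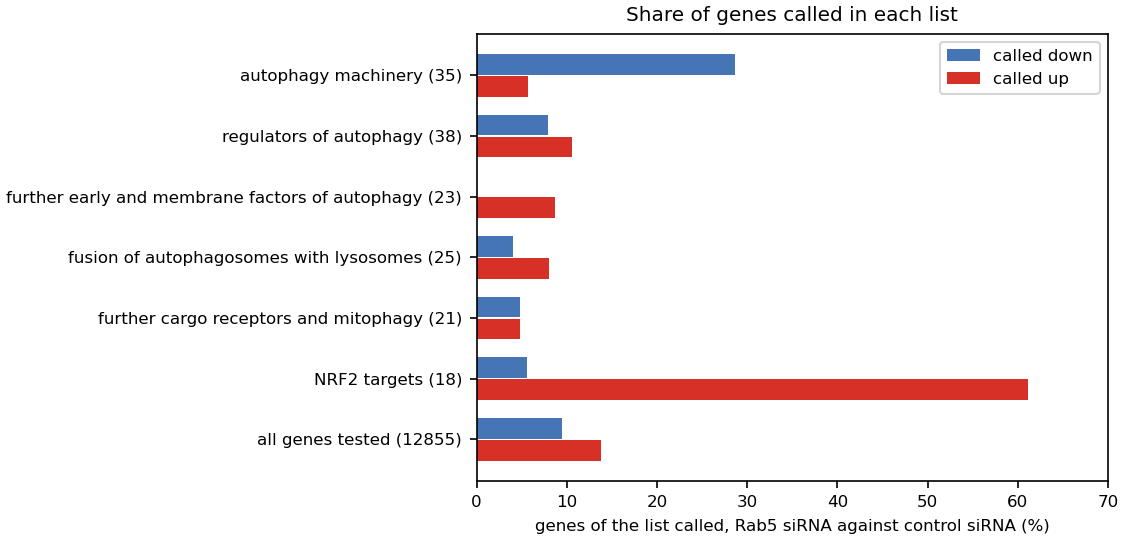
Share of the measured genes of each list (number in brackets) called down (blue) and up (red) by limma for Rab5 siRNA against control siRNA, with all genes tested in the bottom row. The autophagy machinery has 28.6% down and 5.71% up, and all genes 9.51% and 13.8%. The 4 further autophagy lists have separate bars, and of the 18 NRF2 targets 11 rose and 1 fell.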

How the data were processed

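The authors deposited log2 expression values for 45101 probe sets of 10 arrays. Per the submitters' processing notes, which name tools without their order, Affymetrix Expression Console, RMA and Partek 6.6 were used. RMA equalises the distributions of the arrays, so a general shift of all transcripts would not be seen, and it compresses changes of dim probe sets. Depth does not apply to arrays, whose number limits the precision.

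The platform annotation gave 1 symbol to 34945 probe sets, several to 932 and none to 9160, besides 64 control probe sets. Probe sets with 1 symbol were kept if above the median of the table (4.33) in at least 2 arrays (21068). The brightest of these by mean value stood for each gene (12855 genes). All 10 arrays entered a single model of group means (limma 3.58.1, lmFit and eBayes, R 4.3.3), with Benjamini-Hochberg adjustment over all genes and calls at an adjusted p under 0.05. SE are the moderated ones. Other probe sets of a gene came from the same model over all probe sets. The fit was tested on simulated data. A summed marker level is the log2 of the sum of linear values.

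All members are reported. The text gives values in every array for called members, and up to 4 called genes of each of 5 further lists, or the largest changes. Members and lists were chosen with earlier results of these data known. Deviations from the group means of same-numbered Rab5 and control siRNA arrays correlated with r from 0.149 to 0.391 across genes, and those of differently numbered arrays with r from -0.335 to 0.199. These ranges overlap, and in each siRNA group 3 of the 4 arrays correlated best with the array of the same number in the other. The check, from the data and not from the labels, therefore does not settle whether the numbers pair the siRNA arrays. Values with the replicate number as a block are given where they changed a call. Alternatives covered filters, probe set choice, normalization, weights, omitted arrays and the block.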

Additional observations from a re-analysis of the deposited data

Results flagged for a closer look

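Among the values of the 35 autophagy genes in the Rab5 siRNA and the control siRNA livers, 70 groups of 4 in all, 1 group held an array far from the other 3 by Dixon's test. Chance gives about 1 in 20 such groups. For Atg14, Rab5 siRNA replicate 1 had 6.53, while the others lay between 6.35 and 6.38. It remained below the lowest control siRNA value of 6.79. The same array had the highest of the 4 Rab5 siRNA values for 7 of the 10 genes that fell, and the lowest for 2 of them. At the other end, Rab5 siRNA replicate 4 had the lowest value for 7 of the 10 and the highest for 1. The mean of the 10 genes stood 0.62 below the control mean in replicate 4 and 0.39 below it in replicate 1.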

How the results depend on the processing

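Values of single genes under the other settings were compared with the main ones. For Rab5 siRNA against control siRNA, 704 of 765 kept their side of the threshold, 35 dropped out of the calls and 25 entered them. A further 1 reversed, meaning a changed sign with a call. Uncalled values that changed sign are among the 704, as for Becn1, Pik3r4, Atg12, Atg16l2, Atg4b and Atg4c. The reversal was Atg12, at 0.34 with its most variable probe set (adjusted p = 0.0446). Against PBS the counts were 661 of 730 kept, 51 out, 18 in and 0 reversed, again with uncalled changes of sign, such as those of Pik3c3 and Uvrag, counted as kept. With the replicate number as a block, 16 genes were called down against control siRNA and 0 up against PBS, where 11.9% and 9.05% of all genes were. Beyond the calls given above the block changed none. A block over the siRNA groups alone, chosen after seeing the data, called 15 down, where 12.1% of all genes were called down. With replicate 2 omitted from each siRNA group there were 6 falls and 1 rise against control siRNA and 5 falls and 0 rises against PBS, and with replicate 1 omitted from each there was 1 rise against control siRNA and 0 against PBS. The rise of Sqstm1 against PBS was not called with no filter, the mean of the probe sets, the most variable probe set or only the groups compared (0 each). Fitting only the groups compared also ended the falls of Atg14 (0.0541), Atg9a (0.0624) and Atg2a (0.0783) against PBS and of Atg13 against control siRNA (0.0565), which ended with no filter too (0.0533). The mean of the probe sets gave a median change of -0.17. Leaving out 1 array gave 8 to 11 falls and 1 to 2 rises against control siRNA, 0 to 12 falls and 0 to 1 rises against PBS, and a median of -0.27 to -0.20. Over these omissions 6.85% to 10.5% of all genes were called down and 10.4% to 16.3% up against control siRNA. Against PBS, omitting 1 siRNA array gave 5.76% to 8.45% of all genes down and 7.48% to 12.1% up, and omitting a PBS array gave lower shares. The same omissions gave 2 to 6 called regulators, 1 to 2 early and membrane factors, 2 to 3 fusion genes, 2 to 7 further receptors and 11 to 13 NRF2 targets against control siRNA. The causes were not tested. Array weights also called Atg9a, Atg2a and Atg4d down against control siRNA, and Atg101, Atg16l1, Atg4d and Map1lc3b against PBS. Of all genes 13% and 10.6% were then called down, against 9.51% and 7.59% in the main fit. The filter at the 75th percentile and quantile normalization added Atg7 and Atg5 against control siRNA, where 13.8% and 11.6% of all genes fell. The filter also added Atg101 against PBS, where 12% of all genes fell. The most variable probe set added Map1lc3b and Gabarapl1 against PBS, where 8.45% of all genes fell. Dim genes such as Atg10, Pik3c3 and Atg2b lie near background, and 2 PBS arrays limit the comparison with PBS.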
